A study of Homo sapiens with 12 samples.

Results

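The matrix metalloproteinases (MMPs), the ADAMTS proteases and their ADAMTS-like relatives, the tissue inhibitors of metalloproteinases (TIMPs) and the lysyl oxidases were taken as 1 set of 55 genes among the 19903 protein-coding genes of the count table. A gene belonged to the set if it was protein-coding in GENCODE 29 and its symbol was MMP, ADAMTS, ADAMTSL or TIMP followed only by a number, or was LOX or LOXL1 to LOXL4. This gave 22 MMP, 19 ADAMTS, 5 ADAMTSL, 4 TIMP and 5 lysyl oxidase genes. The rule uses no measured value, but it was chosen with earlier results of these data known. Poly(A) RNA had been sequenced from BJ-5ta, a human foreskin fibroblast line immortalized with telomerase, either wild type or lacking LEO1 (ΔLEO1, labelled Leo1). LEO1 is a subunit of the Paf1 complex, which travels with RNA polymerase II, and ΔLEO1 cells came from Cas9 cutting in the first exons of the gene. According to the study's methods the ΔLEO1 cells were a single clone, so that an effect of the genotype and a property of that clone cannot be told apart. Both genotypes were grown in 10% fetal bovine serum (WT_10 and Leo1_10) or kept for 10 days in 0.1% serum, in which fibroblasts leave the cell cycle (WT_01 and Leo1_01). Each of the 4 groups held 3 libraries, numbered 1 to 3 (WT_10), 4 to 6 (Leo1_10), 7 to 9 (WT_01) and 10 to 12 (Leo1_01). The labels do not say whether these came from separate cultures, so the p-values measure only the spread between these libraries, which may be technical.

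MMPs are zinc-dependent enzymes that are made as inactive proenzymes and that cleave collagens, gelatin and other matrix proteins once the propeptide has been removed. TIMPs bind the active site of MMPs and of some ADAMTS enzymes and block them. ADAMTS proteases trim procollagens, cleave proteoglycans such as aggrecan and versican, and act on other matrix glycoproteins, while ADAMTSL proteins share their accessory domains but have no protease domain. Lysyl oxidases oxidize lysines of collagen and elastin and so start the cross-linking of the fibres. Fibroblasts are a source of many of these proteins in connective tissue.

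The 12 libraries held 26240632 to 45315560 gene counts, and 0.625% to 3.24% of all counts came from ERCC transcripts, an RNA mixture that the study's methods say was used at the same dilution for each sample. Whether it was added per cell or per amount of RNA is not given in the sources used here. Values below are ERCC-scaled counts, gene counts per 1000000 effective ERCC counts, unless CPM (counts per 1000000 gene counts) or TPM (the same after division by exon length) is named. The clone had lost most of its LEO1 RNA, from a mean of 23.5 to 1.13 CPM in 10% serum and from 26.8 to 1.16 CPM in 0.1% serum. All 9 fibroblast markers passed the filter on low counts (more than 1 CPM in at least 3 libraries) and summed to 52762 to 76292 CPM. None of 5 epithelial markers passed, with a sum of 0.209 to 1.51 CPM. Of 5 leukocyte markers, 3 passed and summed to 2.01 to 2.96 CPM in wild-type and 3.11 to 9.01 CPM in ΔLEO1 libraries. Of 5 endothelial markers, 1 passed (TEK), and the sum was 2.01 to 5.52 CPM in wild-type and 0.400 to 0.644 CPM in ΔLEO1 libraries. The part of these sums in the results was not tested. In every group the highest-numbered library (3, 6, 9 and 12) stood apart: the chi-square per gene was 3.04 to 12.1 between the other libraries of a group and 66.2 to 144 against it. Library 12 also held 90.7 gene counts per ERCC count, against 52.7 and 30.0 in libraries 10 and 11. A lower ERCC-scaled count can come from fewer cells or from less RNA per cell, which cannot be told apart in bulk RNA.

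Of the 55 genes, 32 passed the filter and 23 did not. The 32 were 10 MMP, 11 ADAMTS, 3 ADAMTSL, 3 TIMP and all 5 lysyl oxidase genes. Among the other 23 no library exceeded 1.19 CPM, and ADAMTS18, ADAMTS20, MMP8, MMP20 and MMP26 had 0 counts in all 12 libraries. A count of 0 allowed between 0.0662 and 0.114 CPM, by library (3 counts of its gene total, counting error only). Low members included MMP9, a gelatinase, at 0 to 2 counts per library, MMP13, a collagenase, at 0 to 3, and ADAMTS4, an aggrecanase, at 3 to 17. TIMP4, the remaining inhibitor, had 11, 8 and 1 counts in WT_10, 0, 0 and 0 in Leo1_10, 10, 11 and 40 in WT_01 and 11, 7 and 8 in Leo1_01, and was not tested. On chromosome 11, 9 MMP genes stand side by side between 102520508 and 102955734 (GRCh38). Only MMP1 and MMP3 of this cluster passed, with 2272 to 45148 and 317 to 9384 counts per library, while the other 7 had at most 25 counts in any library (MMP12).

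Per length, a few members made up most of the RNA of the set. In WT_10 the highest levels were those of TIMP2 at 1713 ± 85.9 TPM (SD, n = 3 here and below), LOX at 1429 ± 304, MMP2 at 1413 ± 234, TIMP3 at 1309 ± 74.3, TIMP1 at 1154 ± 28.3 and LOXL2 at 1056 ± 156 TPM. The means of LOX, MMP2 and TIMP3 lay within their spreads of each other. In WT_01 the order was TIMP1 at 4514 ± 364, MMP2 at 2338 ± 183, TIMP3 at 2248 ± 449 and TIMP2 at 1304 ± 119 TPM, and those of MMP2 and TIMP3 did not differ beyond their spread. The clone had another first gene in both sera, TIMP3, at 4215 ± 1314 TPM in Leo1_10 and 3829 ± 232 TPM in Leo1_01. MMP1 had means of 1454 ± 761 and 1556 ± 597 TPM in the clone in 10% and 0.1% serum, within its spread of TIMP1 and TIMP2 in Leo1_10 and of MMP2 and TIMP2 in Leo1_01, and had 477 ± 35.9 and 279.7 ± 128 TPM in wild-type cells. TIMP1 in Leo1_01, at 3746 ± 137 TPM, lay within the spread of TIMP3.

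**Figure D1:**
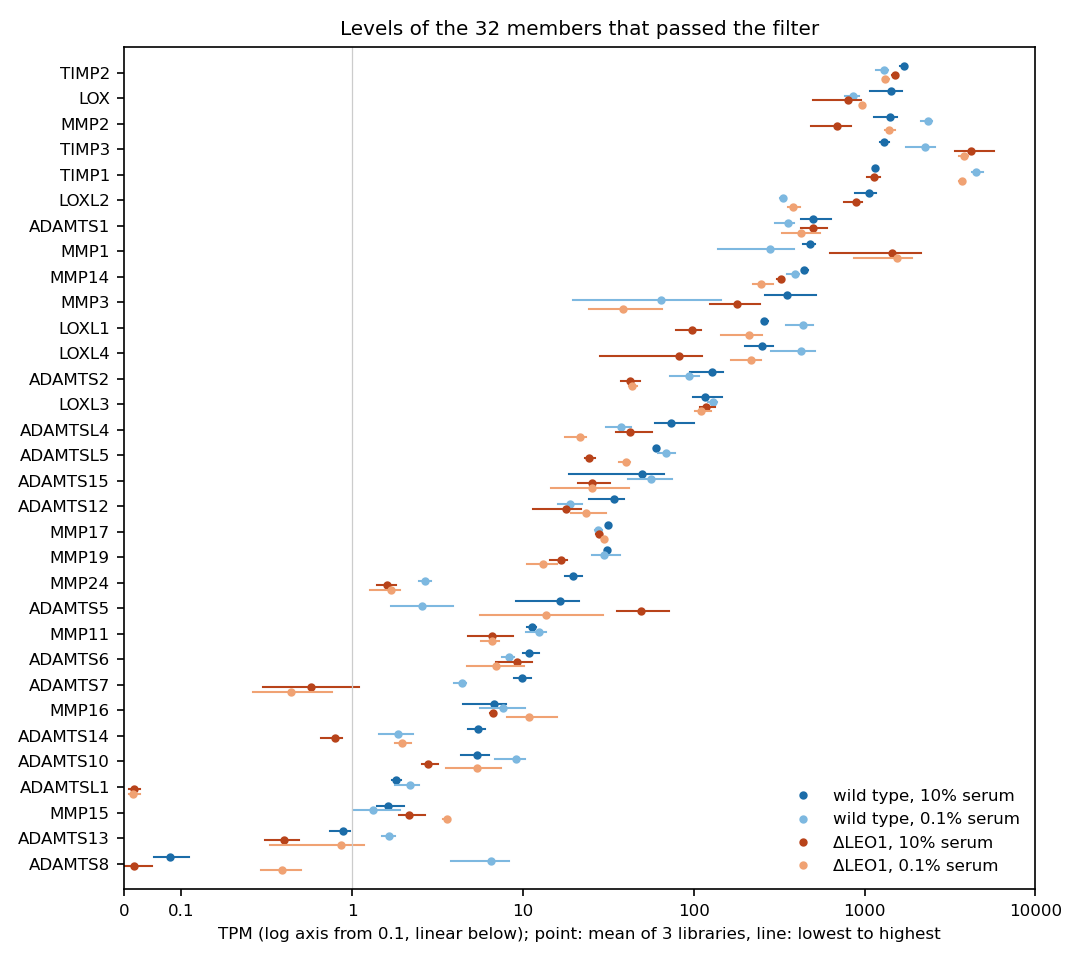
Mean level in TPM of the 32 genes that passed the filter, by group, 1 line of points per gene, on an axis that is logarithmic from 0.1 TPM and linear below; points are means of 3 libraries and lines span the lowest to the highest library. TIMP3 and MMP1 lie to the right in ΔLEO1 cells and TIMP1 in 0.1% serum, MMP24, ADAMTS7 and ADAMTS14 lie furthest right in wild-type cells in 10% serum, and ADAMTSL1 lies right in wild-type cells in both sera.

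Serum withdrawal was compared with 10% serum in each genotype, and the clone with wild-type cells in each serum, in 1 edgeR quasi-likelihood fit to all 12 libraries scaled on the ERCC counts. Changes are log2 fold changes of 0.1% against 10% serum, or of the clone against wild-type cells. A gene was called at a Benjamini-Hochberg adjusted p under 0.05 over the 13236 genes tested, and calls below are those of this fit unless another test or scaling is named. In wild-type cells 14 of the 32 members were lower and 1 higher in 0.1% serum, where 27.0% of all genes tested were lower and 0.831% higher. In ΔLEO1 cells 12 were lower and 1 higher, beside 36.4% and 0.793% of all genes. The median log2 fold change of all genes was -0.97 in wild-type and -1.05 in ΔLEO1 cells, and that of the members -1.11 and -1.04. Groups without overlap were common: in ERCC-scaled counts 53.4% of all genes were lower in this way in wild-type and 50.9% in ΔLEO1 cells. By CPM 18.6% were lower and 31.5% higher without overlap in wild-type cells, and 15.8% and 27.3% in ΔLEO1 cells. With TMM scaling on the genes (gene TMM scaling), which sets the bulk of genes to no change, 10 members were lower and 7 higher in wild-type cells (16.1% and 15.5% of all genes), and 5 lower and 9 higher in ΔLEO1 cells (12.1% and 15.5%).

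The clone differed from wild-type cells in 7 members in 10% serum, 4 lower and 3 higher, beside 4.20% of all genes lower and 3.81% higher. Of the 32 members, ADAMTSL1 exceeded 1 CPM in wild-type libraries alone and ADAMTS8 in WT_01 libraries alone, so that they passed the filter only through the groups in which they were high and are counted among the calls with that limit. ADAMTS7 exceeded 1 CPM in all 6 wild-type libraries and in 1 library of each ΔLEO1 group. In 0.1% serum 3 members were lower and 3 higher, beside 3.41% and 3.49% of all genes. The median of all genes was 0.35 and 0.27 in these comparisons, and that of the members -0.42 and -0.23. Without overlap in ERCC-scaled counts, 6.94% of all genes were lower and 23.7% higher in 10% serum, and 4.83% and 4.64% in 0.1% serum. By CPM these shares were 29.6% and 29.8% in 10% serum, and 21.8% and 19.7% in 0.1% serum. With TMM scaling on the genes 16 members were lower and 3 higher in 10% serum (21.4% and 17.9% of all genes), and 12 lower and 4 higher in 0.1% serum (17.3% and 15.1%). The 4 comparisons share libraries in pairs, so their values are given side by side and not set against each other.

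The other settings are read against their own backgrounds. With the likelihood ratio test 16 members were lower and 2 higher after serum withdrawal in wild-type cells (36.1% and 0.944% of all genes), and 15 and 1 in ΔLEO1 cells (47.2% and 0.975%). It called 4 lower and 3 higher in the clone in 10% serum (4.64% and 4.20%), and 3 and 3 in 0.1% serum (3.59% and 3.85%). DESeq2 gave 17 lower and 2 higher in wild-type cells (40.3% and 0.876%) and 16 and 1 in ΔLEO1 cells (51.8% and 0.816%). In the clone it gave 4 and 2 in 10% serum (4.49% and 4.40%), and 3 and 3 in 0.1% serum (3.48% and 3.68%). Without libraries 3, 6, 9 and 12, 31 members passed the filter. Of these 21 were lower and 1 higher in wild-type cells (63.4% and 0.999% of all genes), and 23 and 0 in ΔLEO1 cells (92.0% and 0.658%). In the clone 6 were lower and 3 higher in 10% serum (5.86% and 4.90%), and 10 and 3 in 0.1% serum (11.8% and 2.26%).

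**Figure D2:**
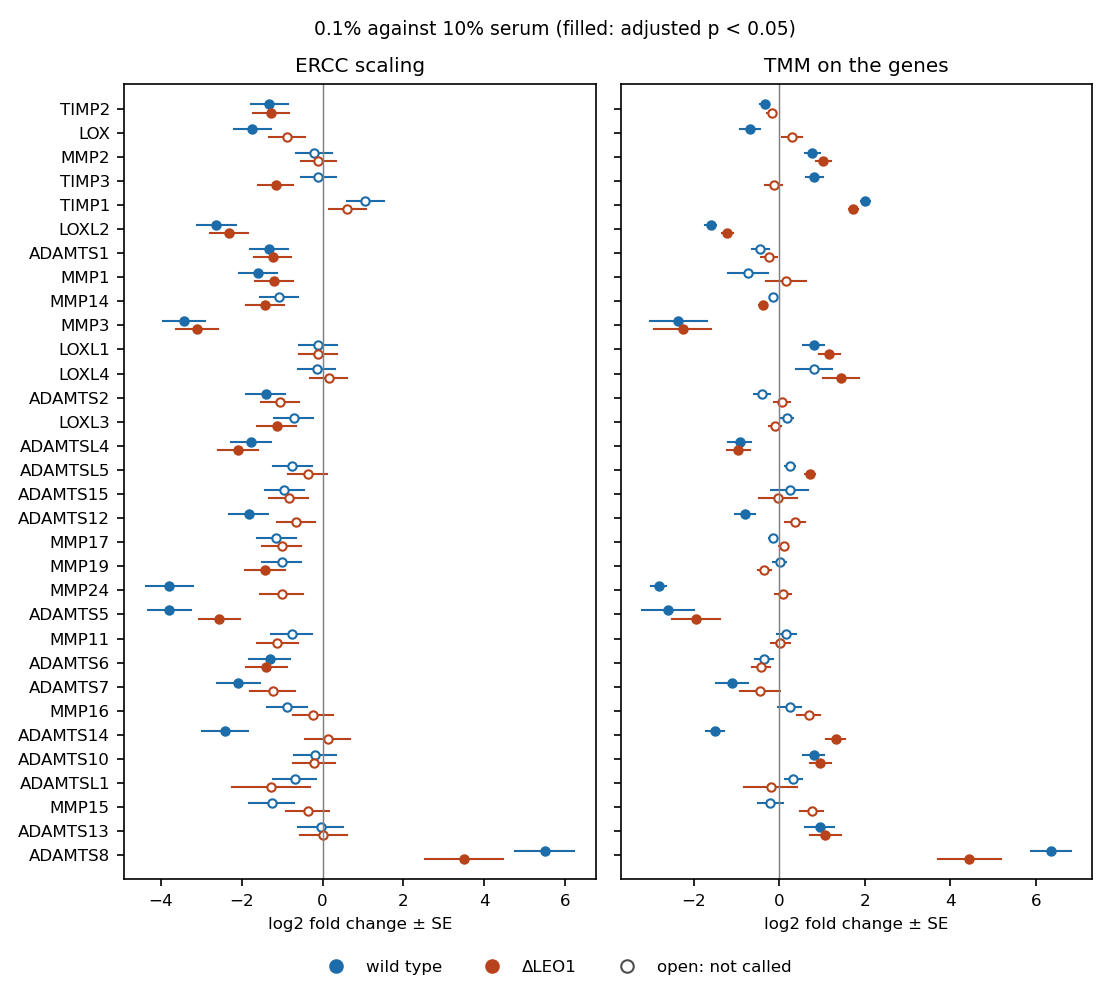
Log2 fold change from 10% to 0.1% serum of the 32 tested members in wild-type and ΔLEO1 cells, with ERCC scaling and with gene TMM scaling; lines are standard errors, filled points are called, open points are not and the grey line marks 0. ADAMTS5, MMP3 and LOXL2 were lower in both genotypes under both scalings, whereas TIMP1 was called higher in both with TMM scaling and in neither with ERCC scaling by the quasi-likelihood test shown. ADAMTS8 was higher in both genotypes under both scalings. It exceeded 1 CPM in WT_01 libraries alone, so it entered the test through the group in which it was high.

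**Figure D3:**
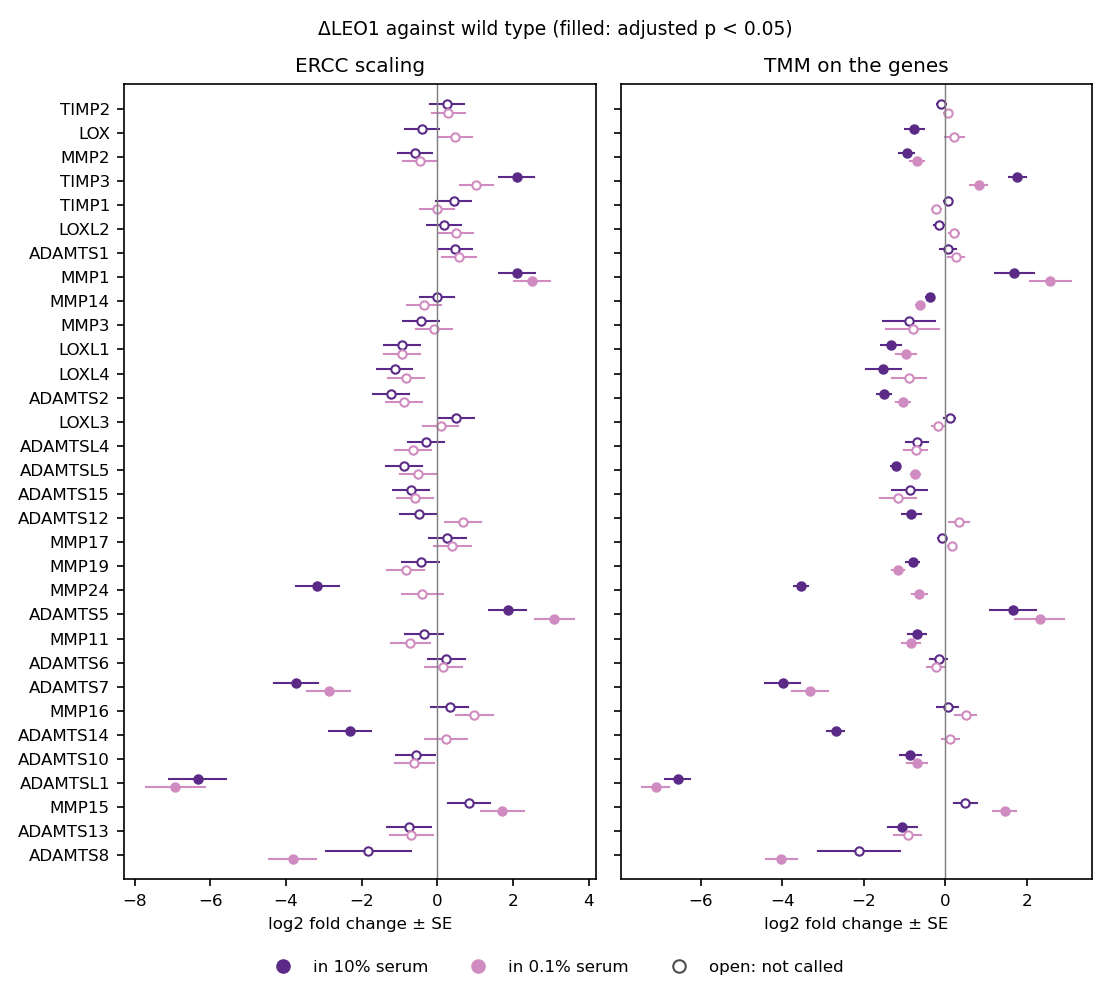
Log2 fold change of ΔLEO1 against wild-type cells of the 32 tested members in 10% and 0.1% serum, with ERCC scaling and with gene TMM scaling; lines are standard errors, filled points are called, open points are not and the grey line marks 0. ADAMTSL1 and ADAMTS7 were lower, and MMP1 and ADAMTS5 higher, in both sera under both scalings. ADAMTSL1 exceeded 1 CPM in wild-type libraries alone, so it entered the test through the groups in which it was high.

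Among the secreted MMPs, MMP1 was higher in the clone in both sera and MMP3 was lower after serum withdrawal in both genotypes. MMP1 (chromosome 11, 102789920 to 102798160, minus strand) is the interstitial collagenase, which cuts fibrillar collagen. It had 23865, 23318 and 14718 ERCC-scaled counts in WT_10 and 117441, 116101 and 30634 in Leo1_10. In 0.1% serum it had 6825, 11111 and 2529 in WT_01 and 51572, 28748 and 34819 in Leo1_01. Every ΔLEO1 library lay above every wild-type library of the same serum, although library 6 held far fewer counts than libraries 4 and 5. The log2 fold change of the clone was 2.09 ± 0.48 (SE; edgeR adjusted p = 0.000291) in 10% serum and 2.49 ± 0.48 (SE; edgeR adjusted p = 1.09e-05) in 0.1% serum. With serum withdrawal MMP1 fell in wild-type cells, at -1.60 ± 0.47 (SE; edgeR adjusted p = 0.00763), and in ΔLEO1 cells at -1.20 ± 0.46 (SE; edgeR adjusted p = 0.0375). With gene TMM scaling neither was called, at -0.74 (edgeR adjusted p = 0.253) in wild-type cells and 0.16 in the clone, where the direction thus depends on the scaling. The wild-type call was lost without library 2, 7 or 9 in turn (log2 fold change -2.14 to -1.20 in the 12 fits with 1 library removed, adjusted p up to 0.14). The ΔLEO1 call was lost without library 2, 4, 5, 7, 10 or 11 (-1.62 to -0.95, adjusted p up to 0.192).

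MMP3 (chromosome 11, 102835801 to 102843803, minus strand), stromelysin 1, degrades proteoglycans and can activate other MMPs. It fell from 14738, 12847 and 16626 to 441, 892 and 2751 ERCC-scaled counts in wild-type cells, and from 12779.8, 13802 and 6297 to 713, 387 and 2727 in ΔLEO1 cells. The groups did not overlap, as for 53.4% and 50.9% of all genes that were lower. Libraries 9 and 12 held the highest values among those in 0.1% serum. MMP3 fell, at -3.43 ± 0.52 (SE; edgeR adjusted p = 7.19e-09) in wild-type and -3.11 ± 0.51 (SE; edgeR adjusted p = 2.86e-07) in ΔLEO1 cells, and -2.37 and -2.27 with gene TMM scaling. It was -4.47 in wild-type cells without library 9 and -4.32 in ΔLEO1 cells without library 12. The clone did not differ by a call from wild-type cells in either serum (-0.43 and -0.10, edgeR adjusted p = 0.683 and 0.952). The ratio of MMP1 to MMP3 counts was 1.62, 1.82 and 0.885 in WT_10 and 15.5, 12.5 and 0.919 in WT_01. In the clone it was 9.19, 8.41 and 4.87 in Leo1_10 and 72.3, 74.3 and 12.8 in Leo1_01. The last library of each group had the lowest ratio of its group, and the ratio does not depend on either scaling.

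MMP2, or gelatinase A, was the highest MMP in wild-type cells, and MMP11, stromelysin 3, was among the low ones. MMP2 (chromosome 16, 55389700 to 55506691, plus strand) had 209807, 177749 and 87685 ERCC-scaled counts in WT_10, 129622, 179534 and 97986 in WT_01, 151763, 103948 and 59235 in Leo1_10 and 89767, 51775 and 152216 in Leo1_01, and no comparison was called. Its CPM did not overlap between groups in any comparison: 1664, 1692 and 1262 in WT_10, 2769, 2976 and 2628 in WT_01, 959, 892 and 562 in Leo1_10 and 1704, 1729 and 1678 in Leo1_01. By CPM 31.5% and 27.3% of all genes were likewise higher without overlap after serum withdrawal, in wild-type and ΔLEO1 cells. In the clone 29.6% and 21.8% were likewise lower in 10% and 0.1% serum. With TMM scaling on the genes MMP2 was higher after serum withdrawal, at 0.77 (edgeR adjusted p = 0.00756) in wild-type and 1.03 (edgeR adjusted p = 0.00191) in ΔLEO1 cells, while with ERCC scaling the estimates were -0.22 and -0.10. In the clone it was lower with TMM scaling, at -0.95 (edgeR adjusted p = 0.00152) in 10% and -0.69 (edgeR adjusted p = 0.0116) in 0.1% serum, and -0.59 and -0.47 with ERCC scaling. MMP11 (chromosome 22, 23768226 to 23784316, plus strand) had 1507, 1427 and 937 ERCC-scaled counts in WT_10 and 1203, 684 and 1125 in Leo1_10, with overlap, and its ERCC-scaled differences were not called. With TMM scaling it was -0.70 (edgeR adjusted p = 0.0249) in the clone in 10% serum and -0.84 (edgeR adjusted p = 0.0126) in 0.1% serum.

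Of the 5 membrane-type MMPs that passed the filter, MMP24 had the largest log2 fold changes in wild-type cells after serum withdrawal and in the clone in 10% serum, MMP14 in ΔLEO1 cells after serum withdrawal and MMP15 in the clone in 0.1% serum. MMP24 (chromosome 20, 35226654 to 35277000, plus strand) had 2327, 1815 and 1529 ERCC-scaled counts in WT_10 and 131, 159 and 119 in WT_01. ΔLEO1 cells had 261, 169.7 and 197 in Leo1_10 and 77.2, 64.5 and 172 in Leo1_01. All 3 WT_10 libraries stood far above the other 9, and the 2 ΔLEO1 groups overlapped. MMP24 fell with serum withdrawal in wild-type cells, at -3.80 ± 0.58 (SE; edgeR adjusted p = 7.97e-09), and was -1.02 (edgeR adjusted p = 0.0964) in ΔLEO1 cells. In the clone it was lower in 10% serum, at -3.18 ± 0.56 (SE; edgeR adjusted p = 7.94e-07), and -0.40 (edgeR adjusted p = 0.868) in 0.1% serum. The difference between the genotypes in their response to serum, the interaction, was 2.78 ± 0.76 (SE; edgeR adjusted p = 0.104) and did not pass. It passed with DESeq2, at 2.78 (adjusted p = 0.00795), and with gene TMM scaling, at 2.91 (edgeR adjusted p = 0.000492). MMP24 shares 799 of its 4414 exon bases with MMP24OS on the opposite strand, and reads of this stretch cannot be told apart, since no source used here says whether counting used the strand. MMP24OS itself was at 63.3 CPM on average in WT_10 and 64.2 CPM in Leo1_10 (log2 fold change 0.35, edgeR adjusted p = 0.737). It averaged 44.5 CPM in WT_01 and 56.8 CPM in Leo1_01. Serum withdrawal lowered MMP24OS, at -1.58 (edgeR adjusted p = 0.0118) in wild-type and -1.35 (edgeR adjusted p = 0.0292) in ΔLEO1 cells. With gene TMM scaling these were -0.59 and -0.23. The part of MMP24OS in the MMP24 values was not tested.

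MMP14, MMP15, MMP16 and MMP17 are the other membrane-type enzymes, of which MMP14 activates pro-MMP2 at the cell surface. MMP14 (chromosome 14, 22836557 to 22849027, plus strand) had 53324, 45139 and 32310.5 ERCC-scaled counts in WT_10, 20182, 26955 and 14541 in WT_01, 55315, 40448 and 33926 in Leo1_10 and 14016, 7648 and 26585 in Leo1_01. Serum withdrawal lowered it in ΔLEO1 cells, at -1.43 ± 0.47 (SE; edgeR adjusted p = 0.0197), and the estimate in wild-type cells was -1.08 (edgeR adjusted p = 0.0598). The ΔLEO1 call was lost without library 4, 5, 10 or 11 (-2.00 to -1.09, adjusted p up to 0.141). In the clone MMP14 was lower with TMM scaling alone, at -0.38 (edgeR adjusted p = 0.00421) and -0.62 (edgeR adjusted p = 0.00021) in 10% and 0.1% serum, with ERCC-scaled estimates of -0.01 and -0.35.

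MMP15 (chromosome 16, 58025566 to 58046901, plus strand) was the other membrane-type enzyme called between genotypes with ERCC scaling. It had 48.7, 71.3 and 77.9 ERCC-scaled counts in WT_01 and 227, 122 and 306 in Leo1_01, and 169, 206 and 99.2 in WT_10 and 309.9, 327 and 206 in Leo1_10. The groups did not overlap in 0.1% serum, and in 10% serum library 6 was level with library 2. The difference was called in 0.1% serum, 1.72 ± 0.56 (SE; edgeR adjusted p = 0.0339), and not in 10% serum (0.83, edgeR adjusted p = 0.508). The 0.1% serum call was lost without library 2, 5, 7, 8, 9 or 10 (1.40 to 2.01, adjusted p up to 0.334). MMP16 and MMP17 were not called in any comparison by the quasi-likelihood test, with ERCC-scaled estimates of -0.89 and -1.14 for serum withdrawal in wild-type cells. MMP17 was called lower there by the likelihood ratio test (adjusted p = 0.0438) and DESeq2 (adjusted p = 0.0261), and in ΔLEO1 cells by DESeq2 (adjusted p = 0.0359). MMP19 (chromosome 12, 55835433 to 55842966, minus strand), a secreted enzyme outside these classes, fell with serum withdrawal in ΔLEO1 cells, at -1.42 ± 0.50 (SE; edgeR adjusted p = 0.0268), from 3079, 2329.8 and 1671 to 675, 473 and 1506 ERCC-scaled counts, and its call was lost without library 4, 5, 10 or 11 (-2.04 to -1.11, adjusted p up to 0.159). The lowest of these values was that without library 12, and with TMM scaling MMP19 was -0.35 (edgeR adjusted p = 0.111). In wild-type cells MMP19 had 4024, 3376 and 2193 and 1410.3, 1726 and 1612 ERCC-scaled counts, with -1.01 (edgeR adjusted p = 0.086). MMP19 shares 814 of its 4672 exon bases with TMEM198B on the opposite strand.

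TIMP1, TIMP2 and TIMP3, the 3 inhibitors that passed the filter, each had a pattern of their own. TIMP1 (chromosome X, 47582313 to 47586789, plus strand), a secreted inhibitor of most soluble MMPs, had 399, 393 and 388 CPM in WT_10 and 1574, 1844 and 1636 in WT_01. The ΔLEO1 values were 448, 418 and 376 CPM in Leo1_10 and 1530.2, 1422 and 1332 in Leo1_01. Every library in 0.1% serum lay above every library in 10% serum by CPM. In ERCC-scaled counts TIMP1 had 50254, 41267 and 26971 in WT_10, 73690.2, 111236 and 60989.8 in WT_01, 70852, 48664 and 39658 in Leo1_10 and 80600.3, 42579 and 120790.0 in Leo1_01. Serum withdrawal gave 1.05 ± 0.46 (SE; edgeR adjusted p = 0.0623) in wild-type and 0.62 ± 0.45 (SE; edgeR adjusted p = 0.217) in ΔLEO1 cells with ERCC scaling, not called in either by the quasi-likelihood test. In wild-type cells it was called by the likelihood ratio test (adjusted p = 0.0484) and by DESeq2 (adjusted p = 0.044) with the same scaling. It was 2.01 (edgeR adjusted p = 1.12e-06) and 1.73 (edgeR adjusted p = 4.57e-06) with gene TMM scaling. Neither genotype comparison of TIMP1 was called under either scaling.

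TIMP3 (chromosome 22, 32801701 to 32863043, plus strand), which binds the extracellular matrix and also inhibits several ADAMTS enzymes, was higher in the clone in 10% serum. It had 157434, 138700.0 and 99323 ERCC-scaled counts in WT_10 and 579643, 449410.0 and 653092 in Leo1_10. In 0.1% serum it had 131131, 161915 and 74678 in WT_01 and 243367, 127147 and 380386 in Leo1_01. The groups did not overlap in 10% serum, where 23.7% of all genes were likewise higher, but did in 0.1% serum, through library 11. The log2 fold change of the clone was 2.09 ± 0.46 (SE; edgeR adjusted p = 0.00013) in 10% serum and 1.03 ± 0.44 (SE; edgeR adjusted p = 0.202) in 0.1% serum. By CPM the 0.1% serum groups did not overlap, at 2801, 2684 and 2003 in WT_01 and 4620.2, 4245 and 4193 in Leo1_01, and TMM scaling gave 0.82 (edgeR adjusted p = 0.00942). With serum withdrawal TIMP3 fell in ΔLEO1 cells with ERCC scaling, at -1.16 ± 0.44 (SE; edgeR adjusted p = 0.0357), which was lost without library 2, 4, 5, 6, 7, 10 or 11 (-1.60 to -0.85, adjusted p up to 0.156) and was -0.13 with TMM scaling. In wild-type cells it was -0.10 with ERCC scaling (edgeR adjusted p = 0.829) but called higher, at 0.82 (edgeR adjusted p = 0.011), with TMM scaling.

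TIMP2 (chromosome 17, 78852977 to 78925387, minus strand), which also takes part in pro-MMP2 activation by MMP14, fell with serum withdrawal in both genotypes. It went from 275767, 228305 and 141438 to 84939.6, 112960.0 and 61231 ERCC-scaled counts in wild-type cells, and from 326285, 227096 and 212681 to 101108, 55753 and 159581 in ΔLEO1 cells, without overlap. Of all genes, 53.4% and 50.9% were likewise lower without overlap. The log2 fold change was -1.32 ± 0.45 (SE; edgeR adjusted p = 0.0224) and -1.28 ± 0.45 (SE; edgeR adjusted p = 0.0272), and -0.35 and -0.18 with TMM scaling, beside a median of all genes of -0.97 and -1.05 with ERCC scaling. Its wild-type call was lost without library 1, 2, 7 or 9 (-1.56 to -1.11, adjusted p up to 0.156) and its ΔLEO1 call without library 4, 5, 10 or 11 (-1.70 to -0.97, adjusted p up to 0.159). The clone and wild-type cells were not called apart in TIMP2 in either serum.

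**Figure D4:**
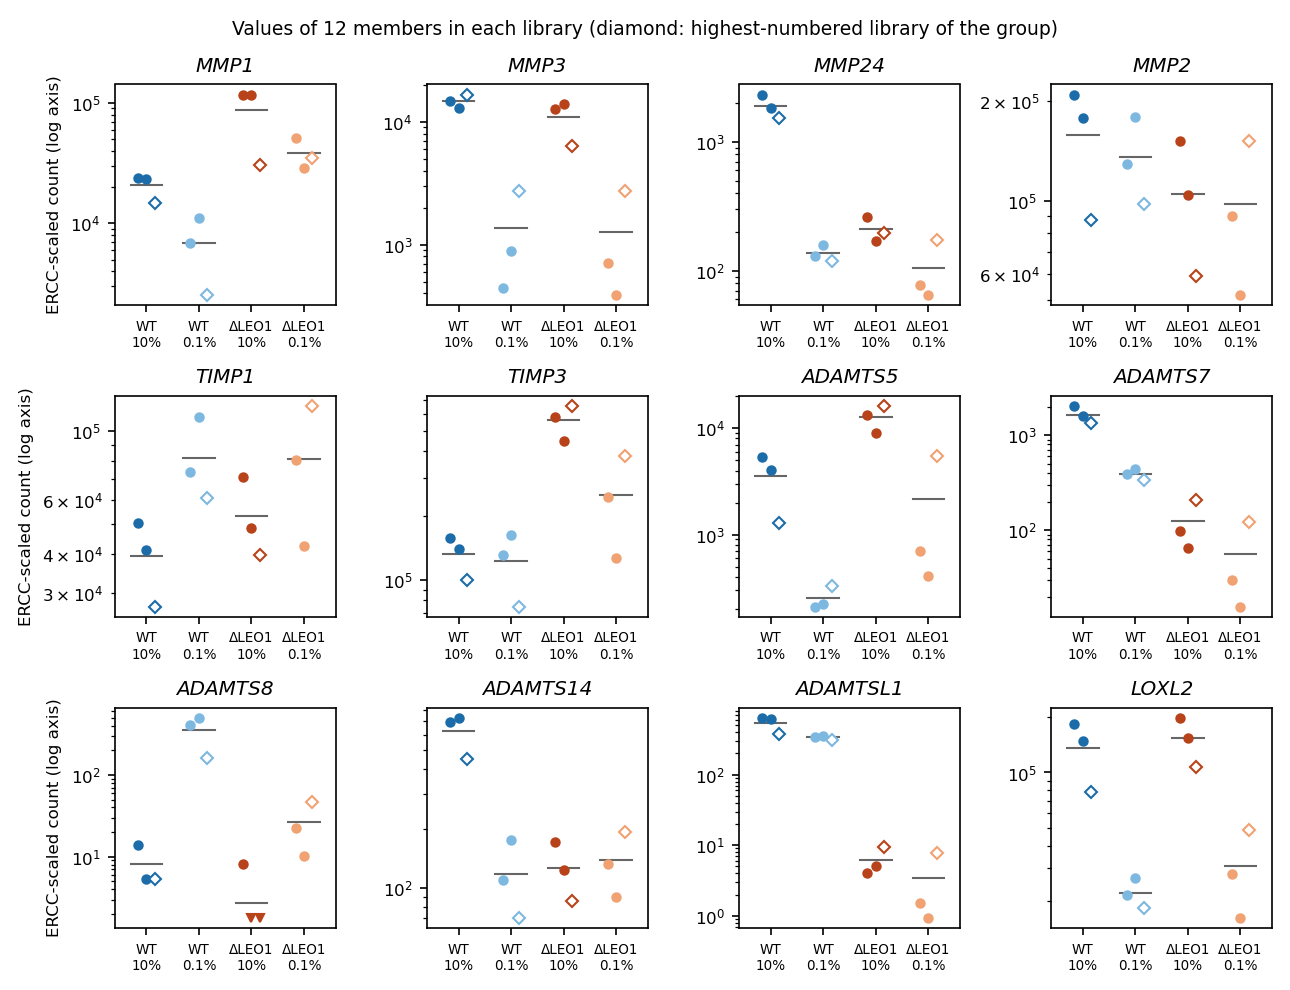
ERCC-scaled counts (log axis) in each of the 12 libraries for 12 members, by group; each mark is 1 library, open diamonds are libraries 3, 6, 9 and 12, lines are group means and triangles at the bottom stand for 0 counts. MMP1 is higher in every ΔLEO1 library than in the wild-type libraries of the same serum, and library 12 lies above libraries 10 and 11 for ADAMTS5 (5427 against 701 and 405).

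Summed per family on the TPM scale, MMP and TIMP RNA can be set beside each other within each library. The sums are relative to the gene counts of each library, and only their ratio and the shares within them do not depend on the scaling. With ERCC scaling the median log2 fold change of the 3 tested TIMP genes after serum withdrawal was -0.10 in wild-type and -1.16 in ΔLEO1 cells. The 22 MMP genes summed to 2779, 2876 and 2717 TPM in WT_10, 3224, 3389 and 2859 in WT_01, 2999, 3522 and 1607 in Leo1_10 and 3549, 3571 and 2809.9 in Leo1_01. The 4 TIMP genes summed to 4198, 4205 and 4128 TPM in WT_10, 8337, 8702 and 7161 in WT_01, 6186, 6121 and 8295 in Leo1_10 and 8965, 8464 and 9282 in Leo1_01. The MMP sum was thus below the TIMP sum in every library. Their ratio was 0.66, 0.68 and 0.66 in WT_10, 0.39, 0.39 and 0.4 in WT_01, 0.48, 0.58 and 0.19 in Leo1_10 and 0.4, 0.42 and 0.3 in Leo1_01, and was higher in WT_10 than in any other library. MMP2 made up 55.5, 54.1 and 42.1% of the MMP sum in WT_10 and 74.3, 73.3 and 74.6% in WT_01. MMP1 made up 53.5, 60.4 and 39.1% in Leo1_10 and 53.7, 53.1 and 30.8% in Leo1_01, against 15.8, 17.8 and 17.7% in WT_10 and 9.80, 11.4 and 4.82% in WT_01. Libraries 6 and 12 had the lowest MMP1 share of the ΔLEO1 libraries and were still above all wild-type libraries. The share of TIMP1 in the TIMP sum was 28.2, 27.5 and 27.3% in WT_10 and 52.3, 56.6 and 59.3% in WT_01, and 20.0, 18.6 and 12.5% in Leo1_10 and 42.5, 42.4 and 41.4% in Leo1_01. It was higher in 0.1% than in 10% serum in all libraries of either genotype, and higher in wild-type than in ΔLEO1 libraries of the same serum.

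**Figure D5:**
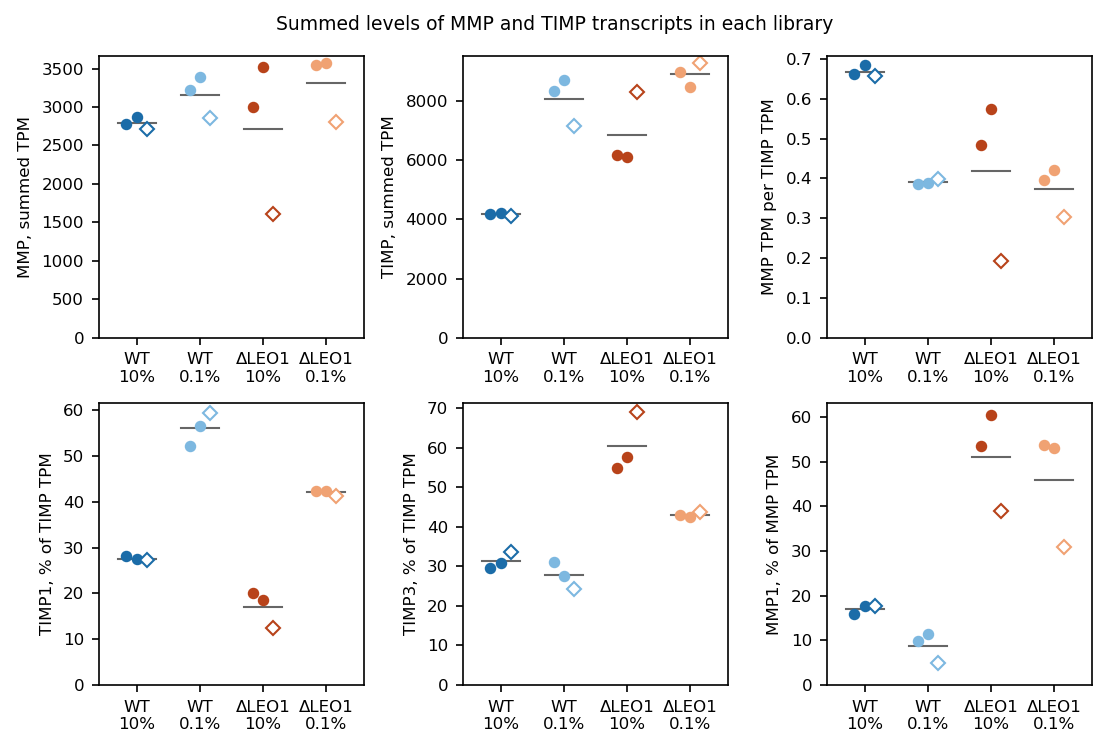
Summed TPM of the MMP and of the TIMP genes, their ratio, and the shares of TIMP1, TIMP3 and MMP1 in these sums in percent, by group; each mark is 1 library, open diamonds are libraries 3, 6, 9 and 12, and lines are group means. MMP1 makes up 30.8% to 60.4% of the MMP sum in ΔLEO1 libraries and 4.82% to 17.8% in wild-type libraries, and TIMP1 makes up 41.4% to 59.3% of the TIMP sum in 0.1% serum and 12.5% to 28.2% in 10% serum.

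Of the hyalectan-cleaving ADAMTS genes, whose products cut versican and aggrecan, ADAMTS1, ADAMTS5, ADAMTS8 and ADAMTS15 passed the filter. ADAMTS1 (chromosome 21, 26835747 to 26845409, minus strand) and ADAMTS5 (chromosome 21, 26917912 to 26966513, minus strand) are neighbours, and so are ADAMTS8 (chromosome 11, 130404925 to 130428993, minus strand) and ADAMTS15 (chromosome 11, 130448974 to 130476641, plus strand). ADAMTS5, a main aggrecanase, had 5314, 4028 and 1279 ERCC-scaled counts in WT_10 and 210.0, 223 and 331 in WT_01. The clone held 13351, 8941 and 16135 in Leo1_10 and 701, 405 and 5427 in Leo1_01. No pair of groups overlapped in a comparison, yet library 12 held many times the value of libraries 10 and 11. ADAMTS5 fell with serum withdrawal, at -3.79 ± 0.54 (SE; edgeR adjusted p = 3.52e-10) in wild-type and -2.56 ± 0.51 (SE; edgeR adjusted p = 3.33e-05) in ΔLEO1 cells, and the latter was -4.54 without library 12. It was higher in the clone, at 1.86 ± 0.49 (SE; edgeR adjusted p = 0.00326) in 10% and 3.09 ± 0.52 (SE; edgeR adjusted p = 1.73e-07) in 0.1% serum. The first of these calls was lost without library 3 (1.46 to 2.29, adjusted p up to 0.109) and the second without library 12 (1.11 to 3.58, adjusted p up to 0.077). DESeq2 did not call the difference in 10% serum (adjusted p = 0.211).

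ADAMTS8, which can cleave aggrecan and is a minor transcript in these cells, was the 1 member called higher after serum withdrawal by the quasi-likelihood test with ERCC scaling. It exceeded 1 CPM in the 3 WT_01 libraries alone, so it entered the test through the group in which it was high. Its counts were 4, 2 and 3 in WT_10 and 294, 218 and 143 in WT_01. In the clone they were 2, 0 and 0 in Leo1_10 and 15, 11 and 18 in Leo1_01. All WT_01 libraries stood far above the rest, and Leo1_01 above both 10% serum groups. By summed counts over ERCC sizes, the ratio of 0.1% to 10% serum was 43.5 in wild-type cells (95% interval 22.8 to 95.6, counting error only) and 10.9 in ΔLEO1 cells (2.84 to 92.6, on 44 against 2 counts). The edgeR log2 fold changes were 5.50 ± 0.73 (SE; edgeR adjusted p = 1.65e-11) and 3.50 ± 0.96 (SE; edgeR adjusted p = 0.00542), which depend on the prior count. The ΔLEO1 call was lost without library 5 (adjusted p = 0.0601), without library 4 no count remained in Leo1_10, and without library 5, 6 or 12 the estimate was 2.87, 2.81 and 2.88. In 0.1% serum ADAMTS8 was lower in the clone, by a ratio of 15.5 (11.4 to 21.5), with -3.83 ± 0.63 (SE; edgeR adjusted p = 7.30e-08), and -4.47 without library 12. In the fit without libraries 3, 6, 9 and 12 ADAMTS8 did not pass the filter, nor in the fits that left out a WT_01 library.

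ADAMTS1 was the highest ADAMTS gene, at 500.1 ± 121 TPM in WT_10. It fell from 84580.2, 69752 and 70299 to 30106, 39755 and 19663 ERCC-scaled counts in wild-type cells and from 121759, 83216 and 105053 to 31913, 21417 and 78716 in ΔLEO1 cells. The groups did not overlap, as for 53.4% and 50.9% of all genes that were lower, with library 12 nearest to the 10% serum values. It fell in both, at -1.33 ± 0.46 (SE; edgeR adjusted p = 0.0242) and -1.23 ± 0.46 (SE; edgeR adjusted p = 0.0333), and -0.45 and -0.25 with TMM scaling, not called. The wild-type call was lost without library 1, 2, 7 or 9 (-1.59 to -1.10, adjusted p up to 0.167) and the ΔLEO1 call without library 2, 4, 5, 6, 7, 10 or 11 (-1.95 to -0.90, adjusted p up to 0.171), its largest change being without library 12. ADAMTS15, another proteoglycan-cleaving enzyme, was not called in any comparison by the quasi-likelihood test under either scaling, at 10524, 8296 and 1651 ERCC-scaled counts in WT_10 and 4698, 3312 and 4571 in Leo1_10.

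The procollagen N-proteinases ADAMTS2 and ADAMTS14 remove the amino-terminal propeptides of fibrillar procollagens. ADAMTS14 (chromosome 10, 70672803 to 70762441, plus strand) had 691, 732 and 454 ERCC-scaled counts in WT_10 and 109.9, 175 and 70.1 in WT_01. In the clone it had 171, 123 and 85.4 in Leo1_10 and 132, 90.2 and 193 in Leo1_01. As for MMP24, the WT_10 libraries stood above the other 9. ADAMTS14 fell with serum withdrawal in wild-type cells, at -2.41 ± 0.56 (SE; edgeR adjusted p = 0.000483), and was 0.13 (edgeR adjusted p = 0.838) in ΔLEO1 cells. It was lower in the clone in 10% serum, at -2.31 ± 0.56 (SE; edgeR adjusted p = 0.000974), and 0.23 (edgeR adjusted p = 0.91) in 0.1% serum. The interaction was 2.54 ± 0.78 (SE; edgeR adjusted p = 0.269) and did not pass with ERCC scaling, but did with gene TMM scaling, at 2.82 (edgeR adjusted p = 0.00187).

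ADAMTS2 (chromosome 5, 179110851 to 179345430, minus strand), the more abundant of these enzymes, had 35592, 28332 and 12903 ERCC-scaled counts in WT_10, 10323, 12812 and 5867 in WT_01, 13167, 9065 and 10529 in Leo1_10 and 4976, 3122 and 7650.4 in Leo1_01. It fell with serum withdrawal in wild-type cells, at -1.41 ± 0.48 (SE; edgeR adjusted p = 0.0219), and was -1.06 (edgeR adjusted p = 0.0588) in ΔLEO1 cells. The wild-type call was lost without library 1, 2, 7 or 9 (-1.73 to -1.11, adjusted p up to 0.178) and with TMM scaling, at -0.41 (edgeR adjusted p = 0.103). By CPM every ΔLEO1 library lay below every wild-type library, with 282, 269.7 and 186 in WT_10 and 83.2, 77.8 and 99.9 in Leo1_10, and 220.5, 212 and 157 in WT_01 and 94.5, 104 and 84.3 in Leo1_01. The clone was -1.51 (edgeR adjusted p = 6.15e-05) and -1.04 (edgeR adjusted p = 0.00111) with TMM scaling in 10% and 0.1% serum, and -1.23 and -0.88 with ERCC scaling (edgeR adjusted p = 0.102 and 0.434).

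ADAMTS7 and ADAMTS12 cleave cartilage oligomeric matrix protein (COMP), and the clone differed in ADAMTS7. ADAMTS7 (chromosome 15, 78759203 to 78811431, minus strand) had 2026, 1593 and 1332 ERCC-scaled counts in WT_10 and 97.9, 64.3 and 209 in Leo1_10. In 0.1% serum it had 388, 446 and 336 in WT_01 and 30.3, 15.7 and 121 in Leo1_01. All ΔLEO1 libraries lay below all wild-type libraries, and the last library of each ΔLEO1 group had the highest value of its group. The log2 fold change of the clone was -3.73 ± 0.58 (SE; edgeR adjusted p = 9.29e-09) and -2.88 ± 0.57 (SE; edgeR adjusted p = 2.05e-05). It was -4.34 in 10% serum without library 6 and -4.11 in 0.1% serum without library 12. Serum withdrawal lowered it in wild-type cells, at -2.08 ± 0.54 (SE; edgeR adjusted p = 0.00198), and gave -1.23 (edgeR adjusted p = 0.061) in ΔLEO1 cells. Of its 58-base stretches, 11.2% also occur in the pseudogenes ADAMTS7P1, ADAMTS7P3 and ADAMTS7P4, so a part of its reads could have been split between them. ADAMTS12 (chromosome 5, 33523535 to 33892192, minus strand) fell from 10365, 8865 and 3692 to 2391, 2575 and 1468 in wild-type cells, at -1.83 ± 0.49 (SE; edgeR adjusted p = 0.00313), a call that was lost without library 1 or 9 (-2.16 to -1.56, adjusted p up to 0.0529). In ΔLEO1 cells ADAMTS12 had 7907, 5534 and 2769.8 and 2694, 1442 and 6126 ERCC-scaled counts, with -0.66 (edgeR adjusted p = 0.211) and overlapping groups.

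ADAMTS6 and ADAMTS10, which are linked to fibrillin microfibrils, were lower members of the family. ADAMTS6 (chromosome 5, 65148736 to 65481920, minus strand) had 2379, 2027 and 1651 ERCC-scaled counts in WT_10, 832, 943 and 670.1 in WT_01, 2960.5, 2674 and 1476 in Leo1_10 and 549.7, 401 and 1773 in Leo1_01. It fell with serum withdrawal, at -1.31 ± 0.50 (SE; edgeR adjusted p = 0.0389) and -1.39 ± 0.50 (SE; edgeR adjusted p = 0.03) in wild-type and ΔLEO1 cells, and was -0.35 and -0.43 with TMM scaling, not called. Library 12 overlapped with Leo1_10. The wild-type call was lost without library 1, 2, 5, 7, 8, 9 or 10 (-1.44 to -1.18, adjusted p up to 0.178) and the ΔLEO1 call without library 2, 4, 5, 7, 10 or 11 (-2.32 to -1.03, adjusted p up to 0.172), with the largest change without library 12. ADAMTS10 (chromosome 19, 8580242 to 8610735, minus strand) had 7.87, 6.84 and 5.53 CPM in WT_10 and 13.8, 13.8 and 9.76 in WT_01, and 3.43, 3.55 and 4.23 in Leo1_10 and 5.26, 10.9 and 6.66 in Leo1_01. It was called with TMM scaling alone, higher after serum withdrawal (0.80 and 0.96, against -0.18 and -0.22 with ERCC scaling) and lower in the clone (-0.86 and -0.70). ADAMTS13, at 0.419 to 2.48 CPM, was also called with TMM scaling alone. It was 0.94 and 1.07 after serum withdrawal in wild-type and ΔLEO1 cells, and -1.06 in the clone in 10% serum. With ERCC scaling these values were -0.04, 0.02 and -0.75.

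ADAMTSL1 RNA was found at more than 1 CPM in all 6 wild-type libraries and in no ΔLEO1 library, and it passed the filter through the wild-type libraries alone. ADAMTSL1 (chromosome 9, 17906563 to 18910950, plus strand), also called punctin, is a secreted glycoprotein of the matrix. Its counts were 187, 227 and 214 in WT_10 and 1, 2 and 4 in Leo1_10. In 0.1% serum they were 249, 155 and 282 in WT_01 and 1, 1 and 3 in Leo1_01. No ΔLEO1 library held more than 4 counts and no wild-type library fewer than 155. Summed over ERCC sizes the clone was lower by a ratio of 77.2 (95% interval 37.2 to 193, counting error only) in 10% serum and 143 (60.9 to 441) in 0.1% serum. The edgeR log2 fold changes were -6.33 ± 0.75 (SE; edgeR adjusted p = 6.45e-15) and -6.92 ± 0.78 (SE; edgeR adjusted p = 2.95e-16). Both calls held in all 12 fits that left out 1 library. Each of these fits let the gene in through wild-type libraries, so they do not test that selection. In 0.1% serum the value was -7.94 without library 12 and -6.32 without library 11. Serum withdrawal gave no call in either genotype (-0.68 and -1.27).

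ADAMTSL4 (chromosome 1, 150549369 to 150560937, plus strand), which binds fibrillin-1 microfibrils, fell with serum withdrawal in both genotypes. It went from 10493, 8983 and 10056 to 2716, 4067 and 1838 ERCC-scaled counts in wild-type cells and from 8372, 6313 and 9112 to 2066, 1163 and 2305 in ΔLEO1 cells. The groups did not overlap, as for 53.4% and 50.9% of all genes that were lower. The change was -1.78 ± 0.49 (SE; edgeR adjusted p = 0.00414) and -2.11 ± 0.50 (SE; edgeR adjusted p = 0.000863), and TMM scaling gave -0.93 and -0.96, both called. Its wild-type call was lost without library 7 or 9 (-2.11 to -1.54, adjusted p up to 0.0663). ADAMTSL4 shares 736 of 6432 exon bases with ADAMTSL4-AS1 on the opposite strand. ADAMTSL5 (chromosome 19, 1505018 to 1513604, minus strand) had 48.2, 49.7 and 47.3 CPM in WT_10 and 20.3, 19.8 and 22.6 in Leo1_10, and 52.5, 59.9 and 69.9 in WT_01 and 34.5, 38.9 and 34.5 in Leo1_01. It was lower in the clone with TMM scaling (-1.22 and -0.74) and not called with ERCC scaling (-0.89 and -0.51).

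Of the 5 lysyl oxidases, LOXL2 fell with serum withdrawal in both genotypes. LOXL2 (chromosome 8, 23297189 to 23425328, minus strand) had 183107, 149015 and 77825 ERCC-scaled counts in WT_10 and 21383, 26679 and 18287 in WT_01. ΔLEO1 cells had 199237, 153582 and 106759 in Leo1_10 and 27882, 16053 and 48899 in Leo1_01. The groups did not overlap, as for 53.4% and 50.9% of all genes that were lower. The change was -2.63 ± 0.48 (SE; edgeR adjusted p = 2.58e-06) in wild-type and -2.31 ± 0.47 (SE; edgeR adjusted p = 6.70e-05) in ΔLEO1 cells, with -1.61 and -1.22 by TMM scaling, both called. LOX (chromosome 5, 122063195 to 122078360, minus strand), the founding member, fell in wild-type cells from 253402, 198986 and 93425 to 52289, 62248 and 48254, at -1.75 ± 0.46 (SE; edgeR adjusted p = 0.00246), which was lost without library 1 (-2.06 to -1.44, adjusted p up to 0.0549). In ΔLEO1 cells LOX had 194780.0, 145698 and 68214 and 71835, 41721 and 109398 ERCC-scaled counts, with overlap, and -0.87 (edgeR adjusted p = 0.0877).

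Of LOXL1, which is needed for elastic fibre upkeep, LOXL3 and LOXL4, only LOXL3 was called with ERCC scaling by the quasi-likelihood test, in 1 comparison. LOXL3 (chromosome 2, 74532414 to 74555690, minus strand) fell in ΔLEO1 cells, from 17665, 13742 and 14379 to 6068, 3526 and 11225 ERCC-scaled counts, at -1.14 ± 0.48 (SE; edgeR adjusted p = 0.0481), but this was lost without library 1, 2, 4, 5, 6, 7, 8, 9, 10 or 11 (-1.67 to -0.82, adjusted p up to 0.182) and was -0.10 with TMM scaling. In wild-type cells LOXL3 had 11969, 10498 and 9913 and 6532, 8205 and 4942 ERCC-scaled counts (-0.72, edgeR adjusted p = 0.185). LOXL3 shares 625 of 4363 exon bases with HTRA2 on the opposite strand. LOXL1 (chromosome 15, 73925989 to 73952137, plus strand) had 201, 203 and 221 CPM in WT_10, 399, 442 and 315 in WT_01, 93.7, 89.2 and 67.2 in Leo1_10 and 237, 224 and 118 in Leo1_01. LOXL4 (chromosome 10, 98247690 to 98268250, minus strand) had 209, 235 and 163 CPM in WT_10, 436, 436 and 257 in WT_01, 91.9, 96.8 and 24.3 in Leo1_10 and 236, 223 and 136 in Leo1_01. Both had higher CPM in 0.1% serum and lower CPM in the clone, without overlap in any of the 4 comparisons. Of all genes, 31.5% and 27.3% were likewise higher by CPM after serum withdrawal, and 29.6% and 21.8% lower in the clone. With TMM scaling LOXL1 was 0.80 and 1.16 with serum withdrawal and -1.33 and -0.97 in the clone, all called. LOXL4 was called with TMM scaling in ΔLEO1 cells after serum withdrawal (1.44) and in the clone in 10% serum (-1.52). With ERCC scaling neither was called, and the serum estimates were -0.12 and -0.11 for LOXL1 and -0.15 and 0.15 for LOXL4, of which 3 have the opposite sign to the TMM values.

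Between genotypes the edgeR quasi-likelihood test called 0 of the 5 lysyl oxidases in either serum. In 10% serum 2 had an unadjusted p under 0.05 and neither the likelihood ratio test nor DESeq2 called any. TMM scaling called 3 lower there (LOX, LOXL1 and LOXL4), beside 21.4% of all genes. In 0.1% serum 1 had an unadjusted p under 0.05, the other tools again called 0, and TMM scaling called LOXL1 lower, beside 17.3% of all genes. The sum of the 5 genes was 3432, 3324 and 2576 TPM in WT_10 and 2316, 2206 and 2028 in WT_01, and 2211, 2249 and 1492 in Leo1_10 and 1897, 1925 and 1822 in Leo1_01. In this sum, which is relative to the gene counts of each library, every ΔLEO1 library lay below every wild-type library of the same serum. With ERCC scaling the median log2 fold change of the 5 genes in the clone was -0.42 in 10% serum and 0.08 in 0.1% serum. The share of LOXL2 in the TPM sum was 33.9, 33.9 and 34.0% in WT_10, 14.8, 14.5 and 17.0% in WT_01, 42.5, 43.2 and 50.6% in Leo1_10 and 18.8, 19.0 and 23.0% in Leo1_01.

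The starts of the 4 genes that were lower in the clone in 10% serum, ADAMTSL1, ADAMTS7, MMP24 and ADAMTS14, are shown to compare their promoters. The sequences are the 250 bases before each start in RefSeq (GRCh38.p14), 5′ to 3′ on the strand of the gene, with CG dinucleotides in capitals. They lie at chr9:18473903-18474152, plus strand, chr15:78811465-78811714, minus strand, chr20:35226440-35226689, plus strand and chr10:70672256-70672505, plus strand.
ADAMTSL1: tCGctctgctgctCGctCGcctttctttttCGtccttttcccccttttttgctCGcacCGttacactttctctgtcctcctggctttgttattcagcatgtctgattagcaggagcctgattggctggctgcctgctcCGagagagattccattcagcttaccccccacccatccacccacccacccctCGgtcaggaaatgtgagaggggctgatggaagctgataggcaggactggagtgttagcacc
ADAMTS7: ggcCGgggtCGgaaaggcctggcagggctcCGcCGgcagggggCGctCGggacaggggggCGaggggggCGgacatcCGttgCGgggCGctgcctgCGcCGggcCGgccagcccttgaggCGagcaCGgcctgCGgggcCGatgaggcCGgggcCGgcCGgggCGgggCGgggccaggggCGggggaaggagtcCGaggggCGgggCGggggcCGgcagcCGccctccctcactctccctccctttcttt
MMP24: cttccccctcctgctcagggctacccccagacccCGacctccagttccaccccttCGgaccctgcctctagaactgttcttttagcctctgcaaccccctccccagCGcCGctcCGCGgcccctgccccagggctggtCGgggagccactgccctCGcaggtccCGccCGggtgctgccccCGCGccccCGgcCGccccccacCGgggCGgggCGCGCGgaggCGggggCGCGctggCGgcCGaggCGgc
ADAMTS14: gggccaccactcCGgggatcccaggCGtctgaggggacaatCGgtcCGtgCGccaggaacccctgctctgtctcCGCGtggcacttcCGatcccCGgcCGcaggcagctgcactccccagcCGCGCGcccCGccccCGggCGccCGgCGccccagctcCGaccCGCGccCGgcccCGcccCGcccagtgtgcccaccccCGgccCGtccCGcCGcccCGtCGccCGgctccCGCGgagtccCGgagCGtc
They hold 8 (ADAMTSL1), 29 (ADAMTS7), 25 (MMP24) and 35 (ADAMTS14) CG dinucleotides. In the whole windows of 300 bases, which reach 50 bases past the start, these counts were 8, 29, 37 and 42, beside a median of 14 and quartiles of 4 and 28 over all 35116 windows. ADAMTSL1 thus differs from the other 3 promoters, which are rich in CG. Its window starts inside the span of the gene in GENCODE 29, so other starts of ADAMTSL1 are not covered by it. TGANTCA, a loose form of the AP-1 motif, reads the same on both strands, and the TATA motif TATAAA was searched on both. Neither occurs in these 4 windows. Of the 35 members with a window (39 windows), 4 held TGANTCA (ADAMTS12, MMP7, MMP10 and MMP20) and 8 held TATAAA. Counted per window, 7.71% and 11.5% of all windows held them. MMP1 and MMP3 were among the members without a window.

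The edgeR quasi-likelihood test called 0 of the 32 members in the interaction of genotype and serum, beside 0.0604% of all genes lower and 0.113% higher. Of the members, 2 had an unadjusted p under 0.05, MMP24 and ADAMTS14, beside 280 of the 13236 genes tested. The likelihood ratio test called 0 (0.0831% of all genes lower and 0.136% higher), DESeq2 called 1, MMP24 (0.0756% and 0.0604%), the fit without libraries 3, 6, 9 and 12 called 1 higher (0.349% and 0.108%), and gene TMM scaling called 2 higher (MMP24 and ADAMTS14), beside 0.453% of all genes lower and 1.55% higher.

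Among 20 genes that activate or control matrix proteases, 17 passed the filter. In wild-type cells 4 of the 17 were lower and 0 higher after serum withdrawal, beside 27.0% and 0.831% of all genes, among them A2M (alpha-2-macroglobulin, a broad protease trap) at -4.94 ± 0.55 (SE; edgeR adjusted p = 4.76e-16), THBS1 at -2.51 and THBS2 at -2.39. In ΔLEO1 cells 7 were lower and 1 higher, beside 36.4% and 0.793% of all genes, the latter being TFPI2, a serine protease inhibitor of the matrix, at 1.46 ± 0.55 (SE; edgeR adjusted p = 0.035). The TFPI2 call was lost without library 2, 4, 5, 6, 7 or 10 (adjusted p up to 0.166). In the clone in 10% serum 3 were lower and 0 higher, beside 4.20% and 3.81% of all genes: TFPI2 at -3.34 ± 0.58 (SE; edgeR adjusted p = 4.36e-07), A2M at -2.61 ± 0.50 (SE; edgeR adjusted p = 5.69e-06) and RECK, a membrane-anchored MMP inhibitor, at -1.58 ± 0.48 (SE; edgeR adjusted p = 0.0164). The RECK call was lost without library 1, 2, 5 or 6 (adjusted p up to 0.154). In 0.1% serum the quasi-likelihood test called 0, beside 3.41% of all genes lower and 3.49% higher, with 1 at an unadjusted p under 0.05. The likelihood ratio test and DESeq2 called 0, while TMM scaling called 5 lower and 2 higher (17.3% and 15.1% of all genes). The interaction was called by the quasi-likelihood test in A2M, at 3.41 ± 0.68 (SE; edgeR adjusted p = 0.000943), and was 2.69 without library 12. DESeq2 also called it in TFPI2, at 2.66 (adjusted p = 0.0128), and gene TMM scaling in TFPI2, RECK and THBS2.

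Of 16 partners and substrates of lysyl oxidases and procollagen proteinases, 13 passed. After serum withdrawal 4 of the 13 were lower in wild-type and 6 in ΔLEO1 cells and 0 higher in either, beside the 27.0% and 36.4% of all genes that were lower. FBN1, the fibrillin of microfibrils, was -1.88 and -1.97, the latter -2.75 without library 12. In 10% serum the clone had 2 lower and 1 higher, beside 4.20% and 3.81% of all genes: POSTN (periostin, a scaffold for BMP1, the procollagen C-proteinase) at 5.29 ± 0.54 (SE; edgeR adjusted p = 5.68e-20), FMOD (fibromodulin, which guides collagen cross-linking) at -3.69 ± 0.71 (SE; edgeR adjusted p = 7.62e-06) and ELN (elastin) at -1.73 ± 0.57 (SE; edgeR adjusted p = 0.0321). POSTN was 6.15 without library 1 and FMOD -4.64 without library 6, and the ELN call was lost without library 1, 2, 4, 5, 6 or 7 (adjusted p up to 0.269) and with DESeq2 (adjusted p = 0.0613). In 0.1% serum FMOD was -6.74 and POSTN 3.11, the 2 genes called there, beside 3.41% of all genes lower and 3.49% higher.

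Of 12 hyalectans and ADAM sheddases, 9 passed. VCAN, or versican, a substrate of the hyalectan-cleaving ADAMTS enzymes, rose with serum withdrawal by 3.46 ± 0.53 (SE; edgeR adjusted p = 7.21e-09) in wild-type and 2.92 ± 0.51 (SE; edgeR adjusted p = 1.77e-06) in ΔLEO1 cells, the latter 2.21 without library 12. Of the 9, 3 were lower and 1 higher in wild-type cells, beside 27.0% and 0.831% of all genes. In ΔLEO1 cells 2 were lower and 2 higher, beside 36.4% and 0.793% of all genes. COMP, the substrate of ADAMTS7 and ADAMTS12, rose in ΔLEO1 cells by 2.85 ± 0.54 (SE; edgeR adjusted p = 1.17e-05) and was higher in the clone in 0.1% serum by 2.47 ± 0.53 (SE; edgeR adjusted p = 0.000102). Without library 12 these values were 1.40 and 1.01, without libraries 3, 6, 9 and 12 they were 0.84 and 0.75, and the first was 3.74 without library 4. DESeq2 called neither (adjusted p = 0.0526 and 0.387), TMM scaling did not call the second (edgeR adjusted p = 0.0935), and the second call was lost without library 12 (edgeR adjusted p = 0.152). In 10% serum ADAM12 was the 1 gene of the list called in the clone, at -2.37 ± 0.54 (SE; edgeR adjusted p = 0.000358), beside 4.20% of all genes lower.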

How the data were processed

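Raw read counts per gene and per ERCC transcript (92 in all) were the deposited data. According to the study's methods and the submitters' processing notes, the authors demultiplexed with bcl2fastq 2.20.0.422, aligned to GRCh38 with the ERCC sequences using STAR (2.7.10a in the notes) and made the counts with featureCounts 1.5.1. The kit was stranded, and the strand setting and annotation release are not given in the sources used here. Gene names, lengths and positions came from GENCODE 29, and promoters from RefSeq. Genes with more than 1 CPM in at least 3 libraries were kept (13236). Library sizes were ERCC totals times TMM factors of the ERCC counts. All 12 libraries entered 1 fit of edgeR 4.0.16 (quasi-likelihood F test, limma 3.58.1, R 4.3.3), with adjusted p under 0.05 as the threshold and the interaction as a contrast. The fit was also run on simulated counts with known changes in some genes. These held neither a shift of most genes nor a library that stood apart, so they do not test the calls under those features. Alternatives were the likelihood ratio test, DESeq2 1.42.0 with ERCC size factors, TMM on the genes, no filter, and fits without 1 or 4 libraries. Intervals of ratios of summed counts are exact and cover counting error only. Named with values were each TIMP and lysyl oxidase, and each other member that passed the filter and met 1 of 2 conditions. These were a mean of 5 CPM or more in some group, or a call by the quasi-likelihood test with ERCC scaling. ADAMTS13 met neither and was added for its calls with TMM scaling. The members, lists and rules were chosen with earlier results of these data known. Promoter windows were found for 35 members and none was used for the other 20.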

Additional observations from a re-analysis of the deposited data

Results flagged for a closer look

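The response of MMP24 to serum withdrawal differed between the genotypes in 2 of the fits. With DESeq2 the interaction was 2.78 on the log2 scale (adjusted p = 0.00795), and with TMM scaling on the genes it was 2.91 (edgeR adjusted p = 0.000492). It did not pass in the quasi-likelihood test with ERCC scaling, at 2.78 ± 0.76 (SE; edgeR adjusted p = 0.104), or in the likelihood ratio test (adjusted p = 0.0539). The serum response itself was -3.80 in wild-type and -1.02 in ΔLEO1 cells.

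The response of ADAMTS14 differed between the genotypes with TMM scaling on the genes, at 2.82 (edgeR adjusted p = 0.00187). With ERCC scaling it was 2.54 ± 0.78 (SE; edgeR adjusted p = 0.269), and the serum response was -2.41 in wild-type and 0.13 in ΔLEO1 cells.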

How the results depend on the processing

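No paired analysis was possible because the running numbers 1 to 12 are shared by no groups. Among the 41 calls of single members, the likelihood ratio test kept all 41, DESeq2 40, TMM scaling on the genes 30 and the fit without a filter 34. In the fits that left out 1 library, 21 calls held wherever the gene was tested, with 0 reversals. ADAMTS8 did not pass the filter in the fits that left out a WT_01 library, so its calls were not tested there. Without libraries 3, 6, 9 and 12, 38 calls could be refitted and all 38 held. This fit kept only the libraries of each group that lay close together. After serum withdrawal it called 63.4% of all genes lower in wild-type and 92.0% in ΔLEO1 cells, so it tests those calls little. With ERCC scaling further calls came after serum withdrawal from the likelihood ratio test and DESeq2 for MMP14, MMP17 and TIMP1 in wild-type and ADAMTS2 and MMP11 in ΔLEO1 cells, from the former for ADAMTS7 in ΔLEO1 cells, and from DESeq2 for MMP15 in wild-type and MMP17 and MMP24 in ΔLEO1 cells.

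Counts of called members moved as follows. The share of all genes called is given in brackets. In wild-type cells the 1 member higher after serum withdrawal became 2 with the likelihood ratio test (0.944%), 2 with DESeq2 (0.876%) and 7 with TMM scaling (15.5%). In ΔLEO1 cells the 12 lower became 5 with TMM scaling (12.1%) and 7 without a filter (7.84% of the 32285 genes then tested). Without the 4 libraries they became 23, where 92.0% of all genes were lower. The 1 higher became 9 (15.5%), 2 (0.307%) and 0 (0.658%) in these 3 fits. In the clone in 10% serum the 4 lower became 16 with TMM scaling (21.4%). In 0.1% serum the 3 lower became 12 with TMM scaling (17.3%) and 10 without the 4 libraries (11.8%). In the interaction the 0 higher became 1 with DESeq2 (0.0604%), 2 with TMM scaling (1.55%) and 1 without the 4 libraries (0.108%). TMM scaling without the 4 libraries, an alternative chosen after seeing the data, gave 8 higher in wild-type and 14 higher in ΔLEO1 cells after serum withdrawal (27.1% and 28.3% of all genes), 19 lower in the clone in 10% serum (31.9%), 17 lower and 8 higher in 0.1% serum (29.0% and 30.4%), and 4 lower and 15 higher in the interaction (8.66% and 15.7%). Of single members, MMP1 in ΔLEO1 cells after serum withdrawal reversed to 0.16 with TMM scaling and to 0.14 with TMM scaling without the 4 libraries, and in that fit LOXL3 was 0.000693 and TIMP3 0.22. The causes were not tested, beyond the shift of the median gene that TMM scaling removes.

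Leaving out each library in turn gave 7 to 20 lower and 0 to 2 higher with serum withdrawal in wild-type cells, 4 to 22 and 0 to 1 in ΔLEO1 cells, 4 to 6 and 2 to 3 in the clone in 10% serum, 2 to 8 and 2 to 5 in 0.1% serum, and 0 to 0 and 0 to 2 in the interaction. The shares of all genes called in these fits are not given here, so the ranges are not read as results about the members. At these depths a count of 0 allowed up to 0.114 CPM, so lower levels were not detectable. With 3 libraries a group, changes near the spread of the ERCC-scaled counts could not be called.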

Other observations

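A pair of untested members, chosen after their values were seen, had few counts that differed between genotypes. ADAMTS17 held 2 counts in the 3 WT_10 libraries and 21 in Leo1_10, a ratio of 12.2 (95% interval 2.98 to 107, counting error only), and 1 against 24 in 0.1% serum, a ratio of 23.1 (3.76 to 948). ADAMTS3, the third procollagen N-proteinase, held 105 counts in WT_10 and 24 in Leo1_10, a ratio of 3.76 lower in the clone (2.40 to 6.14), and 60 against 12 in 0.1% serum, a ratio of 5.20 (2.77 to 10.6).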
